A study of Mus musculus with 2 samples.

Results

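The genes described here carry folate into cells and run its one-carbon cycle. They are the folate receptor genes Folr1 and Folr2, the carrier genes Slc19a1 and Slc46a1, the cytosolic enzyme genes Mthfd1 and Shmt1, and the mitochondrial enzyme genes Mthfd1l, Mthfd2 and Shmt2. All 9 were taken by symbol, through the mouse GENCODE annotation, from the 43346 genes of the files, and every transcript entry of these genes was taken with them. The tissue was embryonic facial prominence of healthy B6NCrl mouse embryos of mixed sex at 11.5 days. Facial prominences are the swellings of mesenchyme and covering epithelium from which the face is built. The 1 group held 2 libraries of total RNA, with 109 embryos pooled for library 1 and 88 for library 2, each library made from 10 ng of RNA longer than 200 nt. No genotype, treatment or second stage was compared, so the comparisons are between genes within a library and between the 2 pools, with no p-value. The spread between the libraries holds both the difference between pools and the technical error.

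Folates carry one-carbon units that are used to make thymidylate and purines and to remethylate homocysteine. Serine hydroxymethyltransferases load such a unit from serine onto tetrahydrofolate, and MTHFD enzymes interconvert the oxidation states of the loaded folate. The cytosol and the mitochondria hold parallel sets of these enzymes, and formate made in the mitochondria feeds the cytosolic set. Folate supply is best known in the embryo for its part in neural tube closure, and the developing face is formed in large part by neural crest cells that leave the neural folds.

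The tissue label was checked against markers. All 8 facial mesenchyme markers (Msx1, Alx1, Dlx5, Prrx1, Prrx2, Twist1, Barx1 and Lhx8) reached 1 TPM in both libraries, where TPM is transcript abundance per length, scaled to a fixed total, so that levels of different genes can be compared. Their summed level was 793 TPM in library 1 and 837 TPM in library 2. Over all protein-coding genes, 58.5% reached 1 TPM in both libraries. Other cell types were in the tissue too, since all 8 epithelial, all 7 neural, all 6 erythroid and all 5 skeletal muscle markers did. So did 9 of 10 macrophage markers and 4 of 8 yolk sac and liver markers. Reaching 1 TPM therefore does not by itself single out facial tissue. Depth was 30849058 expected counts in library 1 and 31600302 in library 2, of which the 9 genes took 12147 and 11836.

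The promoters of 4 of the enzyme and carrier genes are shown here, because the results below turn on the Shmt2 and Shmt1 pair, on Mthfd2 and on the start site of Slc19a1. Each is a RefSeq window of 250 bases before an annotated start on GRCm38.p6, read 5′ to 3′ along the gene and trimmed to the longest run free of annotated exons. Capitals mark exact matches, on either strand, to CCAAT (the CCAAT box), GGGCGG (the GC box), CACGTG (the E box), CGCATGCG (the centre of the NRF1 palindrome) or TGATGNAA (the CARE motif of ATF4), the motifs searched.
Shmt2, chr10:127522445-127522694, minus strand: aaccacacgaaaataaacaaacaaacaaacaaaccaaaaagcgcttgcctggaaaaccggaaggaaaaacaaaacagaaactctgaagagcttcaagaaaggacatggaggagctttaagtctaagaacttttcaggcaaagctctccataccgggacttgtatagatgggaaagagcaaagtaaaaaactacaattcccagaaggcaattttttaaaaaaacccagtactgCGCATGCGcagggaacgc
Shmt1, chr11:60811266-60811466, minus strand: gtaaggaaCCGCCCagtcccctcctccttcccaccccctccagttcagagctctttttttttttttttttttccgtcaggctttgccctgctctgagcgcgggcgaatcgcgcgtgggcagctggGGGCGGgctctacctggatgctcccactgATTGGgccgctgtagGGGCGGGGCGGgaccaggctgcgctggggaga
Mthfd2, chr6:83317607-83317854, minus strand: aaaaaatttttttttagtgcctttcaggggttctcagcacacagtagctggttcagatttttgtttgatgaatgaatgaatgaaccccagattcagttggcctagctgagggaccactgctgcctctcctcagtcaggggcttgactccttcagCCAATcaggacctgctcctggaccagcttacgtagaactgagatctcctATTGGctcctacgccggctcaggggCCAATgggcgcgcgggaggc
Slc19a1 upstream start, chr10:77032489-77032683, plus strand: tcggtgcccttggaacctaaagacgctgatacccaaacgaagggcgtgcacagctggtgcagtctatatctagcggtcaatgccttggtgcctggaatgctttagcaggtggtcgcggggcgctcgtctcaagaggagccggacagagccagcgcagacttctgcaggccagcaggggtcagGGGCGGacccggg
Slc19a1 downstream start, chr10:77032962-77033211, plus strand: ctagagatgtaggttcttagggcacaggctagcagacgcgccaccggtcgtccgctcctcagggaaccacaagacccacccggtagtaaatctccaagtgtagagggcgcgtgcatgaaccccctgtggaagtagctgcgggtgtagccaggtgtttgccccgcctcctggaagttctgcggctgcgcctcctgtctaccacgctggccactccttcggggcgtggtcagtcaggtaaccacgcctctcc

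The Shmt2 window held 1 match to CGCATGCG, from the motif of NRF1, a factor known for genes of mitochondrial function, and no match to the other motifs. That motif was found in 1.55% of all 32851 RefSeq windows of the same length. The windows of the other mitochondrial genes, Mthfd2 and Mthfd1l (the latter not shown), held no match to it. The Shmt1 window held 4 matches to GGGCGG, of which 2 share a base, and 1 match to CCAAT. At its length of 201 bases, 31.1% of all windows held GGGCGG and 29.5% held CCAAT. The Mthfd2 window held 3 matches to CCAAT, which 33.7% of windows of 248 bases held at least once. The trimmed 195 bases for the upstream RefSeq start of Slc19a1 held 1 GGGCGG, found in 30.8% of windows of that length. After trimming, these bases end at 77032683, short of that start at 77032739. The 250 bases before the downstream RefSeq start held none of the motifs. No window of the 5 held CACGTG or TGATGNAA. A match is a run of letters and not a measured site. Of the 9 genes, 8 had an entry in the promoter table, and Folr1 had none.

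Of the 9 genes, 7 were detected, meaning 1 TPM or more in both libraries, which is 77.8%, beside 58.5% of all 21474 protein-coding genes. Their median level was 18.7 TPM, beside 3.45 TPM over all protein-coding genes. Mthfd1 stood highest, followed by Shmt1 and Shmt2 at the same mean, Mthfd2, Slc19a1, Mthfd1l, Slc46a1, Folr1 and Folr2. Of the 8 neighbouring pairs in that order, 5 were separated, with ranges that did not touch and means further apart than the sum of the SDs. The pairs not separated were Shmt1 with Shmt2, Mthfd1l with Slc46a1, and Folr1 with Folr2. Mthfd2 was separated from Shmt2, but its distance from Shmt1, 2.73 TPM, was under the sum of their SDs, 2.84 TPM.

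**Figure D1:**
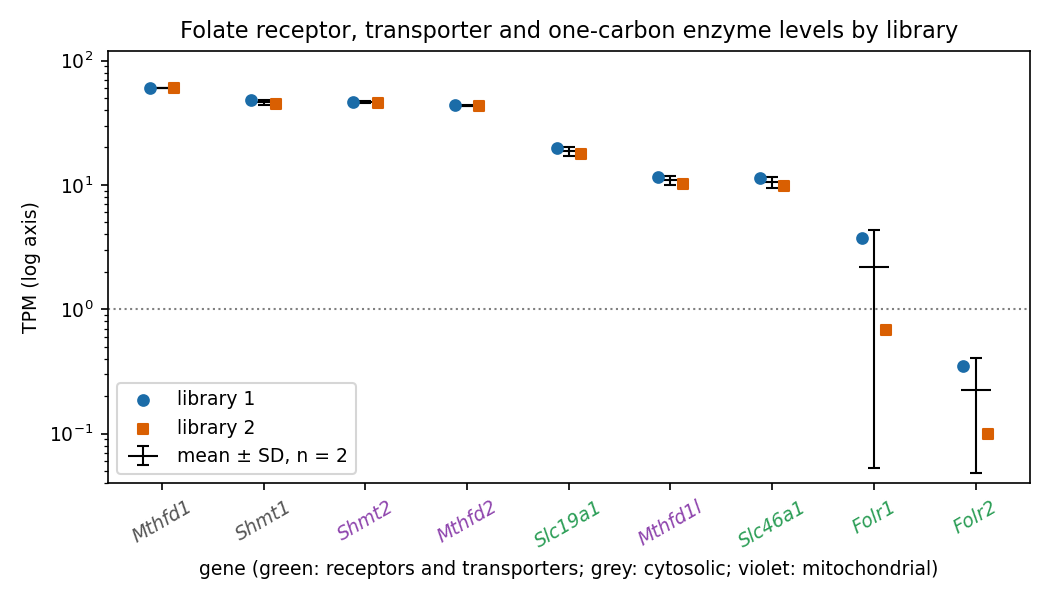
Level of each gene in TPM on a log axis, in library 1 (circles) and library 2 (squares), with the mean and SD over the 2 libraries in black; the dotted line is 1 TPM. The 4 enzymes Mthfd1, Shmt1, Shmt2 and Mthfd2 lie between 43.1 and 60.7 TPM in both libraries, and Folr1 and Folr2 lie lowest with the widest spread.

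The folate receptors were the lowest of the genes. Folr1 encodes folate receptor alpha, a membrane-anchored receptor with high affinity for folate that epithelia use to take it up by endocytosis. The gene (ENSMUSG00000001827.7) lies on chr7:101858331-101870788, minus strand, in the mm10 assembly. It measured 3.71 TPM in library 1 and 0.68 TPM in library 2 (mean 2.20 ± 2.14 TPM, SD, n = 2), from 42 and 14 expected counts. Its mean level was above that of only 8.01% of detected protein-coding genes, and library 2 fell below the detection level. Folr2 encodes folate receptor beta, known from macrophages, and lies beside it on chr7:101839988-101857194, minus strand (ENSMUSG00000032725.9). It measured 0.35 TPM in library 1 and 0.10 TPM in library 2, from 7 and 2 counts. Its exons share 975 bases with Gm10602 on the opposite strand, which had 19.0 and 11.5 counts, so even these few reads are not certain to be its own. Folr1 stood over Folr2 by 10.6-fold in library 1 and 6.80-fold in library 2 (8.70 ± 2.69, SD, n = 2), and with 2 and 7 counts on the Folr2 side the size of that ratio is loosely fixed.

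Both carriers were well above the receptors. Slc19a1 encodes the reduced folate carrier, an antiporter at the cell surface, and lies on chr10:77032241-77061002, plus strand (ENSMUSG00000001436.11). It measured 19.74 TPM in library 1 and 17.57 TPM in library 2 (18.7 ± 1.53 TPM, SD, n = 2), from 837 and 747 counts, above 51.1% of detected protein-coding genes. Slc46a1 encodes the proton-coupled folate transporter, which carries folate in acidic compartments and in the gut, and lies on chr11:78465697-78472059, plus strand (ENSMUSG00000020829.9). It measured 11.34 TPM in library 1 and 9.84 TPM in library 2 (10.6 ± 1.06 TPM), from 390 and 346 counts. Slc19a1 stood over Slc46a1 by 1.74-fold and 1.79-fold in library 1 and library 2 (1.76 ± 0.0317), so this ratio repeated more closely than either level did. Together the 4 receptors and carriers held 13.2% ± 1.51 of the TPM of the 9 genes.

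Over whole genes, the cytosolic set had the highest summed level, 108 TPM in library 1 and 105 TPM in library 2. The mitochondrial set summed to 102 and 99.0 TPM. With coding transcripts only, Shmt1 fell to 33.83 TPM in library 1 and 32.12 TPM in library 2. The mitochondrial set was then the higher in both. Mthfd1, the cytosolic enzyme with dehydrogenase, cyclohydrolase and formyltetrahydrofolate synthetase activities, lies on chr12:76255298-76319803, plus strand (ENSMUSG00000021048.6). It measured 60.66 TPM in library 1 and 60.21 TPM in library 2 (60.4 ± 0.318 TPM), from 4011 and 4053 counts, above 80.0% of detected protein-coding genes. Shmt1, the cytosolic serine hydroxymethyltransferase, lies on chr11:60788104-60811718, minus strand (ENSMUSG00000020534.10). It measured 47.83 TPM in library 1 and 44.67 TPM in library 2 (46.25 ± 2.23 TPM), from 2142 and 2045 counts. Both cytosolic genes together held 44.6% ± 0.784 of the TPM of the 9 genes.

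The mitochondrial enzymes divided into a pair near the cytosolic level and one well below it. Shmt2, the mitochondrial serine hydroxymethyltransferase, lies on chr10:127517123-127522444, minus strand (ENSMUSG00000025403.4), and measured 46.85 TPM in library 1 and 45.65 TPM in library 2 (46.25 ± 0.849 TPM), from 2119 and 2102 counts. Mthfd2, the mitochondrial methylenetetrahydrofolate dehydrogenase and cyclohydrolase, known as high in embryos and tumours and low in most adult tissue, lies on chr6:83305691-83325908, minus strand (ENSMUSG00000005667.6). It measured 43.95 TPM in library 1 and 43.10 TPM in library 2 (43.5 ± 0.601 TPM), from 1775 and 1774 counts. Mthfd1l, the mitochondrial synthetase that releases formate, lies on chr10:3973118-4167081, plus strand (ENSMUSG00000040675.13). It measured 11.61 TPM in library 1 and 10.20 TPM in library 2 (10.9 ± 0.997 TPM), from 824 and 753 counts, above 37.7% of detected protein-coding genes. These 3 genes held 42.1% ± 0.724 of the TPM of the 9.

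Within each library, mitochondrial genes were set over their cytosolic partners. Shmt2 over Shmt1 was 0.980 in library 1 and 1.02 in library 2 (1.00 ± 0.0300, SD, n = 2), so the libraries fall on either side of an equal level. Mthfd2 over Mthfd1, which share the dehydrogenase and cyclohydrolase steps, was 0.725 in library 1 and 0.716 in library 2 (0.720 ± 0.00615). This ratio leaves out Mthfd2l, the second mitochondrial dehydrogenase, at 24.77 TPM in library 1 and 31.07 TPM in library 2. Mthfd2 and Mthfd2l together stood above Mthfd1 in both libraries. Mthfd1l over Mthfd1, which share the synthetase step, was 0.191 in library 1 and 0.169 in library 2 (0.180 ± 0.0155), and the cytosolic gene was higher by 5.56-fold ± 0.480. Within the mitochondrial set, Mthfd2 stood over Mthfd1l by 3.79-fold in library 1 and 4.23-fold in library 2 (4.01 ± 0.311), while Shmt2 over Mthfd2 was 1.07 and 1.06. For whole genes, the 3 mitochondrial genes summed to 0.944 of the 2 cytosolic genes in library 1 and 0.943 in library 2. That sum leaves out Mthfd2l. These are ratios of RNA levels per length, and 1 cytosolic gene covers steps that 2 of these mitochondrial genes share.

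The equal level of the SHMT pair held for whole genes and not for their coding transcripts. Shmt2 has 1 annotated transcript in the files, while Shmt1 has 11. Counting only transcripts annotated as protein coding, Shmt2 measured 46.85 TPM and Shmt1 33.83 TPM in library 1, and Shmt2 measured 45.65 TPM and Shmt1 32.12 TPM in library 2. Their ratio was then 1.38 in library 1 and 1.42 in library 2 (1.40 ± 0.0257), above 1 in both. The same restriction left Mthfd2 over Mthfd1 at 0.716 and 0.709, and Mthfd1l over Mthfd1 at 0.187 and 0.169. The Shmt1 retained-intron and processed entries are short, so that few counts give them a large share of TPM, as set out with the transcripts below.

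**Figure D2:**
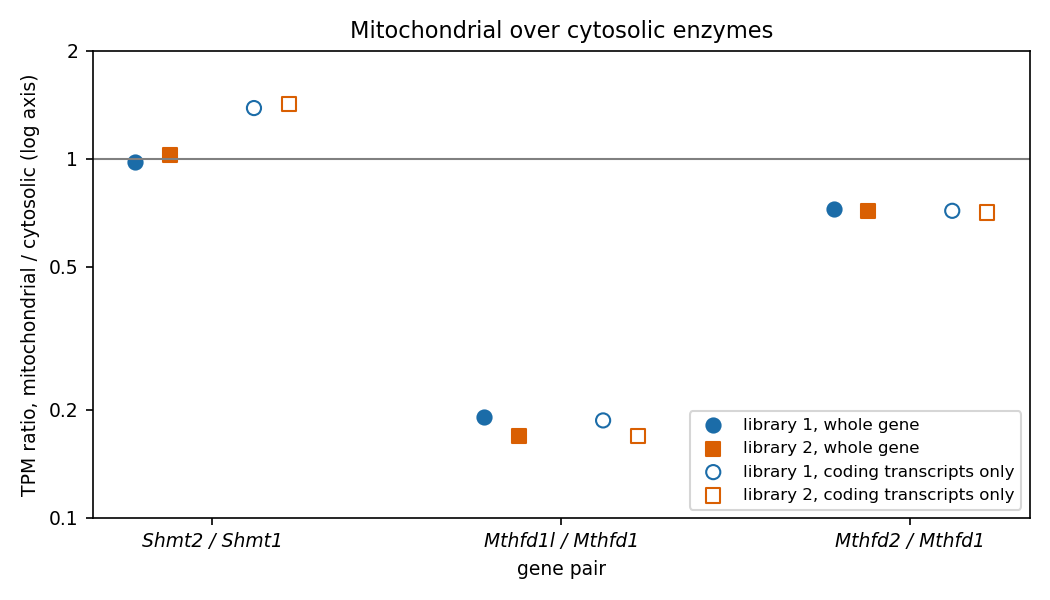
TPM ratio of each mitochondrial gene to its cytosolic partner on a log axis, library 1 as circles and library 2 as squares; filled symbols use whole genes and open symbols only transcripts annotated as protein coding. Shmt2 over Shmt1 lies at 0.980 and 1.02 for whole genes and at 1.38 and 1.42 for coding transcripts. The other pairs, which leave out Mthfd2l, stay below 1 under both.

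The libraries were then set against each other, with counts scaled by trimmed mean of M values (TMM) over all genes. The ratio is library 1 over library 2, and its 95% interval holds counting error alone and takes each read as a separate molecule, with no molecular identifiers to check that. A gene was called past the fold limit where it was at least 25% higher in either library than in the other, among genes with 50 or more counts over both. Of the 8 genes with that many counts, 1 was called, against a background of 17.9% of 14790 such genes (10.8% toward library 1 and 7.13% toward library 2). That gene, Folr1, was also the only one past 1.5-fold, which 6.6% of those genes were. None of the 6 genes with 1000 or more counts was past the 25% limit, beside 3.75% of 8606 genes at that depth. Mthfd1 was at 0.988 (0.945 to 1.03), Mthfd2 at 0.999 (0.935 to 1.07), Shmt2 at 1.01 (0.947 to 1.07) and Shmt1 at 1.05 (0.984 to 1.11). Mthfd1l was at 1.09 (0.988 to 1.21) and Slc46a1 at 1.13 (0.971 to 1.30).

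Slc19a1 was at 1.12 (1.01 to 1.24), so its counting interval excluded 1. Such intervals excluded 1 for 2 of the 8 genes, Slc19a1 and Folr1, against 42.6% of all 14790 genes, and both lay toward library 1, as 19.7% of all genes did. The typical spread between the libraries over 15986 genes, a coefficient of variation of 9.79% by edgeR's common dispersion, is of the size of the Slc19a1 difference. The deposited TPM was higher in library 1 for 9 of 9 genes, and the scaled counts for 7 of 9. The same shares over all genes were not counted, so these numbers cannot be read as a trait of the folate genes. Over the 14783 genes with 50 or more counts for which both ratios could be formed, the ratio of TPM exceeded the ratio of unscaled counts by a median factor of 1.02.

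**Figure D3:**
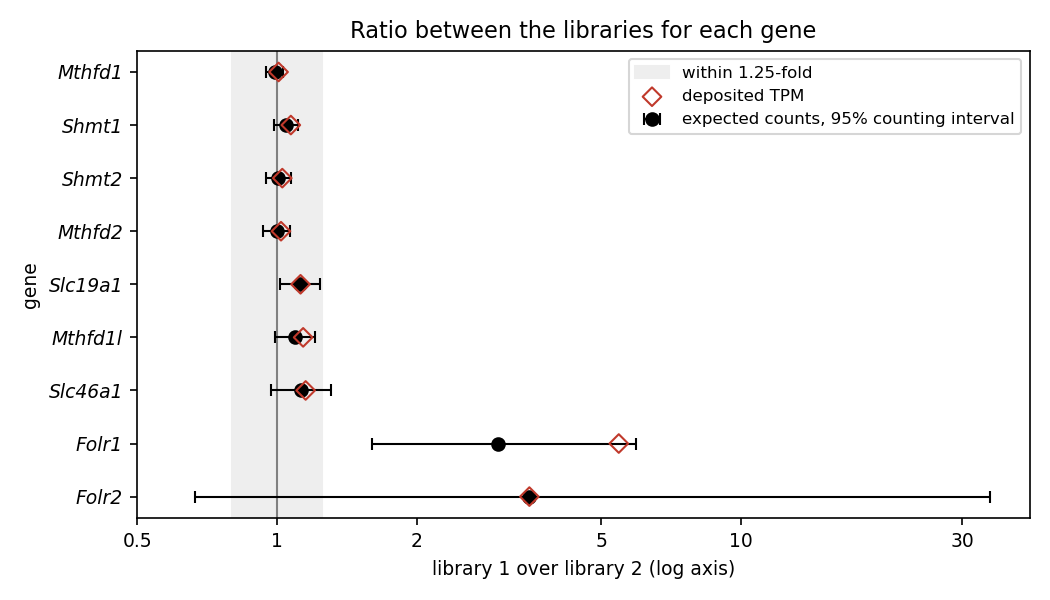
Library 1 over library 2 for each gene on a log axis; black points are TMM-scaled expected counts with the exact 95% interval of counting error, red diamonds are the ratio of deposited TPM, and in the grey band neither library is 25% or more above the other. The 7 genes from Mthfd1 to Slc46a1 lie in the band, Folr1 lies at 2.99 by counts and 5.46 by TPM, and the Folr2 interval runs from 0.665 to 34.5.

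The Folr1 counts gave 2.99 (1.60 to 5.94) for library 1 over library 2, and the deposited TPM gave 5.46. Among the 1300 genes with 50 to under 100 counts, 34.8% were past the 25% limit toward library 1, and 2.77% reached the ratio of Folr1. Over all 14790 genes, 0.365% did. TPM divides counts by an effective length, and that of Folr1 was estimated at 552 nt in library 1 and 980 nt in library 2, with the reads placed on different transcripts. The ratio by TPM was 1.82 times that by unscaled counts for Folr1. Relative to the median factor of 1.02, TPM and counts parted by 1.5-fold or more in 115 of the 14783 genes (0.778%). Posterior mean TPM was 4.73 in library 1 and 2.38 in library 2. It does not reflect the assignment of reads alone. Folr2, with 1 transcript and a posterior SD of 0 counts, also rose by it. It went from 0.35 to 0.39 TPM in library 1 and from 0.10 to 0.14 TPM in library 2. Folr1 entries with no expected counts received posterior TPM too, so 4.73 and 2.38 are loosely fixed. Folr2 stood at 3.49 (0.665 to 34.5), below the 50 counts required for a call.

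Marker levels also differed between the libraries, in both directions. Among all genes with 50 or more counts, 10.8% were past the 25% limit toward library 1 and 7.13% toward library 2. The 8 epithelial markers summed to 240 TPM in library 1 and 208 TPM in library 2. Of them 3 (Krt18, Grhl3 and Grhl2) were past the 25% limit toward library 1, while Esrp1 was at 0.960. The 7 neural markers summed to 481 TPM in library 1 and 445 TPM in library 2, with 1 of 7 past the limit each way. The 10 macrophage markers, of which 9 were detected, summed to 126 TPM in library 1 and 112 TPM in library 2. Of them 2 (Cd68 and Cx3cr1) were past the limit toward library 1. C1qa (0.923), Adgre1 (0.909) and Mrc1 (0.860) lay the other way, within the limit. The 8 yolk sac and liver markers summed to 35.8 TPM and 28.5 TPM, with 2 past the limit toward library 1 and 1 toward library 2, and the ratios of these 3 ran from 0.774 to 4.83, the highest above that of Folr1. Of this list 4 were detected, and Apoa4 had 0 counts in both libraries, an upper limit of 0.0853 and 0.0838 TPM at 3 counts per library. The 6 erythroid markers summed to 11172 TPM in library 1 and 10274 TPM in library 2, with 1 past the limit toward library 1. Of the 8 mesenchyme markers, Barx1 and Lhx8 were past the limit toward library 2. The 5 skeletal muscle markers summed to 103 TPM in library 1 and 168 TPM in library 2, with 4 past the limit toward library 2. Their part in the receptor differences was not tested. In tissue RNA, fewer cells of a type and less RNA per cell cannot be told apart.

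The 9 genes had 51 transcript entries, and 3 of the genes, Mthfd1, Shmt2 and Folr2, had 1 each. Of the 6 with several, 5 had the same leading transcript in both libraries, the one with the largest share of the gene's TPM. Over 6226 genes with several transcripts and a mean of at least 10 TPM, 93.7% did, and 93.5% by posterior mean TPM. The exception was Folr1, which is below that 10 TPM level, so this background holds for the other 5 and not for Folr1. Folr1-206, a short entry of 350 nt, led in library 1 with 50.62% but had no share in library 2. There Folr1-201 led with 63.55%, after 49.38% in library 1, and Folr1-205 held 36.45% in library 2 and nothing in library 1. By expected counts Folr1-201 led in both, with 77.0% in library 1 and 55.9% in library 2. Over the 17 Folr1 entries the posterior shares were spread more evenly, but they also went to entries with no expected counts. They were 29.9% and 10.6% for Folr1-206 and 16.9% and 9.52% for Folr1-201 in library 1 and library 2. By posterior mean Folr1-206 led in library 1. In library 2 the largest posterior share, 12.8%, fell to Folr1-209, a processed transcript of 299 nt with 5.02% in library 1. Folr1-209 had 0 expected counts in both libraries, with posterior SDs of 0 and 0.46 counts. Its lead thus rests on no reads assigned to it.

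Shmt1-201, the full coding transcript of 2858 nt, held 69.37% of Shmt1 TPM in library 1 and 71.91% in library 2, and 87.6% and 90.5% of its counts. Shmt1-205, a retained-intron entry of 582 nt, held 11.35% and 14.39% of TPM from 2.51% and 3.17% of the counts. Shmt1-208, a processed transcript of 1295 nt, held 13.04% and 10.27% of TPM, from 153 counts in library 1 and 114 counts in library 2, with posterior SDs of 52.0 and 46.3 counts. All retained-intron entries of Shmt1 together came to 16.24% and 17.48%. The 184 exonic bases that Shmt1 shares with Smcr8 on the opposite strand belong to both genes, and the sources used here do not say whether the libraries were stranded.

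Slc46a1-201, the coding transcript, held 79.35% of Slc46a1 TPM in library 1 and 79.65% in library 2. Slc46a1-202, annotated as a target of nonsense-mediated decay, held 15.84% and 15.25% of TPM, from 6.14% and 5.88% of the counts. It skips the exon of 853 nt at chr11:78466351-78467203, and its share repeated between the libraries within 1 percentage point. That share rested on 23.9 counts in library 1 and 20.4 in library 2. The posterior SDs were 8.56 and 8.52 counts, so its size was loosely fixed. The junctions are shown here from GENCODE M21 transcripts, with the last 24 bases of the first exon in lower case and the first 24 of the next exon used in capitals.
Slc46a1-201: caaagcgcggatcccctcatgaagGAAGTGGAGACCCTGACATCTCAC
Slc46a1-202: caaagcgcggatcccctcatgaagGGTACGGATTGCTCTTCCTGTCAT
The files give shares by model and no junction reads, so the skip is an estimate of the authors' quantification. The retained-intron entry Slc46a1-203 held 4.81% and 5.10%.

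Slc19a1-201, which starts at the downstream start shown above, held 87.85% of Slc19a1 TPM in library 1 and 85.10% in library 2. By posterior mean its share was 66.79% and 64.41%. Slc19a1-209, chosen after its values were seen, starts upstream at position 77032684 and was listed at 0% in both libraries, but at 13.93% and 12.81% by posterior mean. The posterior SDs of the counts were 83.5 and 87.1 for Slc19a1-201 and 81.9 and 86.8 for Slc19a1-209. The split between these transcripts was thus weakly fixed by these reads, while the gene's total had an SD of 0. The other 8 entries held 12.15% and 14.90% as deposited.

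Mthfd1l-202 led Mthfd1l with 69.57% in library 1 and 74.51% in library 2, and Mthfd1l-201 held 26.15% and 25.49%. Their posterior SDs were 51.3 and 55.2 counts for Mthfd1l-202 and 50.8 and 54.8 counts for Mthfd1l-201, so the split between these transcripts was loosely fixed. Mthfd2-201 held 98.89% and 99.06% of Mthfd2 TPM, so Mthfd2 was in effect a gene of 1 transcript here. The assignment of reads to genes was firmer than that to transcripts. Its posterior SD was 0 counts for 8 of the 9 genes and 1.67 and 1.45 counts for Shmt1. That SD holds no counting error, and the 8 include Folr1 and Folr2, with 56 and 9 counts over both libraries.

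**Figure D4:**
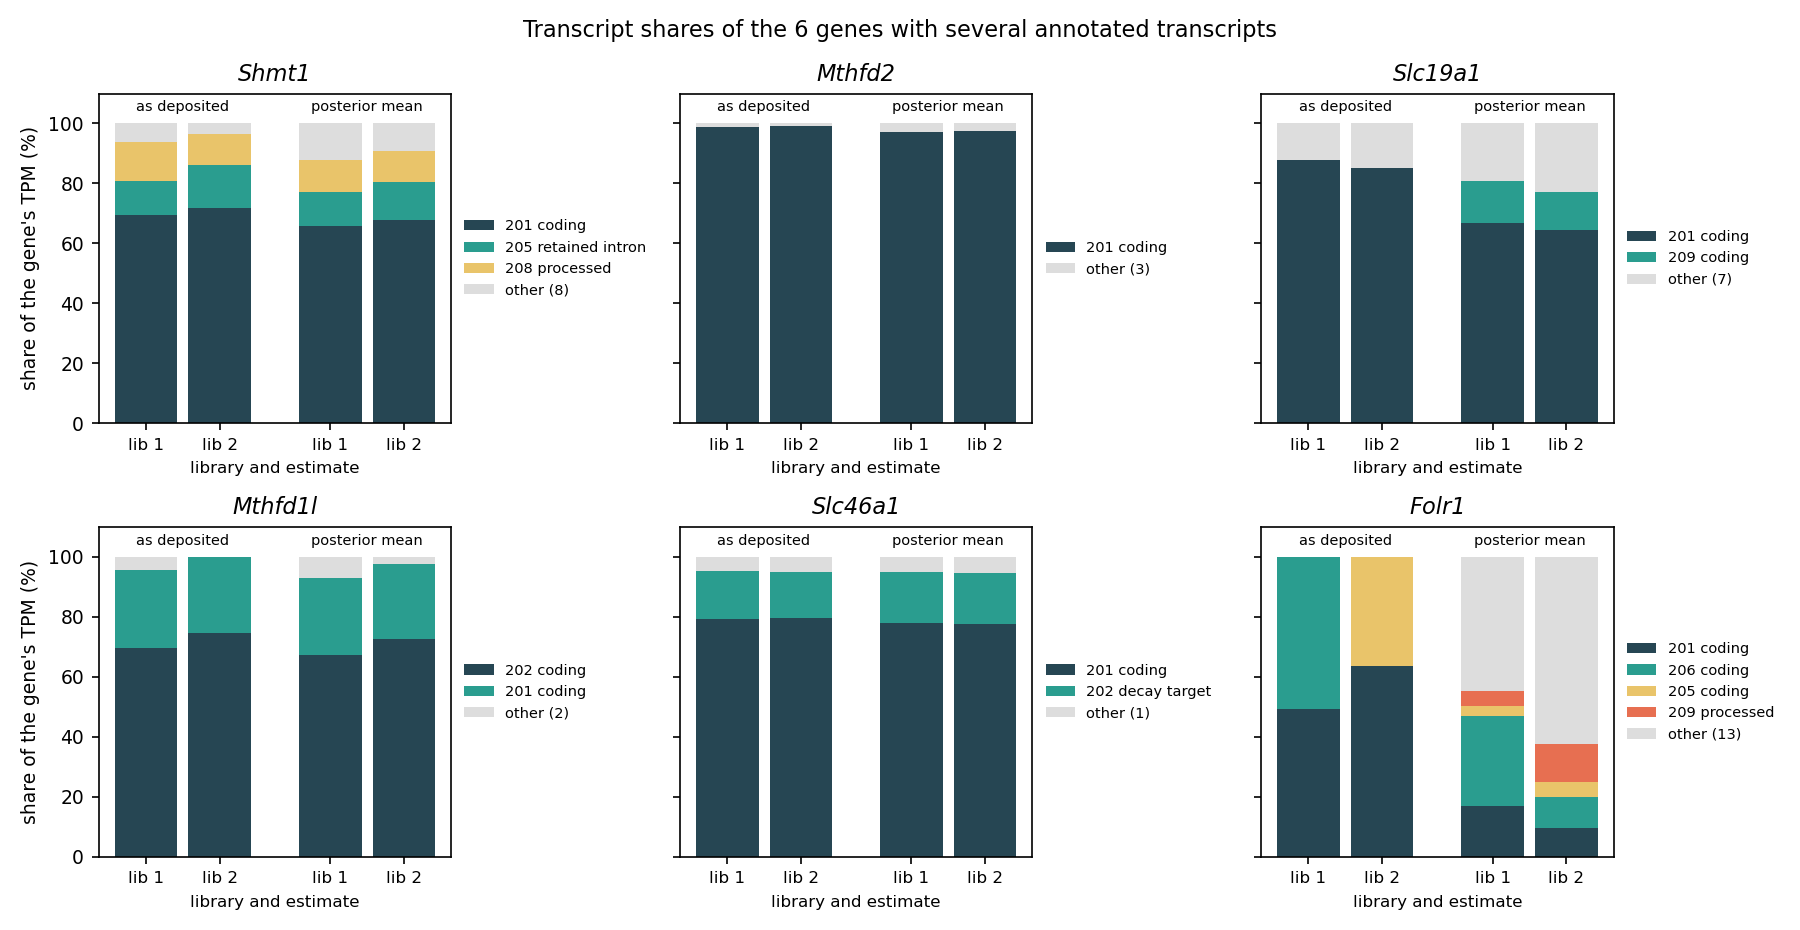
Share of each gene's TPM by transcript, in percent, for the 6 genes with several transcripts; in each panel the left pair of bars is the deposited isoform percentage and the right pair the share of posterior mean TPM, library 1 left of library 2. Transcripts with 10% or more in any bar are coloured and all others are summed in grey. The bars of 5 genes are alike between the libraries, and those of Folr1 are not.

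Around these genes, 47 others of folate and one-carbon metabolism were examined in 8 lists. Of them 38 were detected (80.9%, beside the 58.5% of protein-coding genes), with a median of 14.65 TPM. Of the 40 with 50 or more counts, 2 were past the 25% limit toward library 1 and 4 toward library 2, beside the 10.8% and 7.13% of all genes. Toward library 1 lay Gldc and Aldh1l1. Gldc, the glycine decarboxylase of the cleavage system, measured 7.02 TPM in library 1 and 4.64 TPM in library 2, with a ratio of 1.48 (1.29 to 1.70). Aldh1l1, a formyltetrahydrofolate dehydrogenase, measured 1.74 TPM and 0.88 TPM, with a ratio of 1.26 (0.866 to 1.83). The Aldh1l1 ratio comes from 68 and 54 counts, and its TPM values lie further apart than that ratio. Toward library 2 lay Cbs (ratio 0.539), Cubn (0.580), Mthfs (0.724) and Mthfd2l (0.782). Cbs starts transsulfuration, Cubn encodes cubilin, Mthfs returns formyl folate to the active pool, and Mthfd2l is the second mitochondrial dehydrogenase.

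The list of nucleotide synthesis, where one-carbon units are spent, had 4 of 4 detected, led by thymidylate synthase Tyms at 260 TPM in library 1 and 270 TPM in library 2 (265 ± 7.03) and Gart, an enzyme of purine synthesis, at 69.1 ± 0.0354 TPM. Serine supply had 5 of 5, led by Phgdh, the first enzyme of serine synthesis from glycolysis, at 229 ± 1.32 TPM and Psat1 at 75.0 ± 3.85 TPM. Glycine cleavage had 4 of 4, led by Dld at 165 ± 16.0 TPM, a subunit shared with other complexes, and Gcsh at 126 ± 0.948 TPM. The serine and glycine genes that lead these lists stood above all 9 folate genes.

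Of the methionine cycle, 7 of 11 were detected, led by Mat2a and Mat2b, the subunits of the methionine adenosyltransferase of most tissues, at 316 ± 0.622 and 80.9 ± 0.495 TPM. The liver form Mat1a, with Gnmt, Bhmt2 and Bhmt, all best known from liver, stayed below 1 TPM in both libraries. Bhmt had no count in either, an upper limit of 0.0485 TPM in library 1 and 0.0476 TPM in library 2 at 3 counts per library. Choline oxidation had 1 of 3 detected, Sardh at 2.16 ± 0.113 TPM, with Dmgdh and Chdh below 1 TPM in both libraries. Cobalamin handling had 6 of 6, led by Mmadhc at 132 ± 5.86 TPM and Cd320, the receptor for transcobalamin, at 61.7 ± 2.08 TPM.

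Folate interconversion had 5 of 7 detected, led by Mthfd2l at 24.77 TPM in library 1 and 31.07 TPM in library 2 (27.9 ± 4.45). Ftcd, a liver enzyme of histidine breakdown, was below 1 TPM in both. The mitochondrial dehydrogenase was thus measured from both Mthfd2 and Mthfd2l, with Mthfd2 the higher in each library. Folate handling had 6 of 7, led by the exporter Abcg2 at 39.1 ± 2.90 TPM and Ggh, which trims the glutamate tail of folates, at 19.6 ± 1.40 TPM. Cubn was below 1 TPM in both libraries, at 0.14 TPM in library 1 and 0.24 TPM in library 2.

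**Figure D5:**
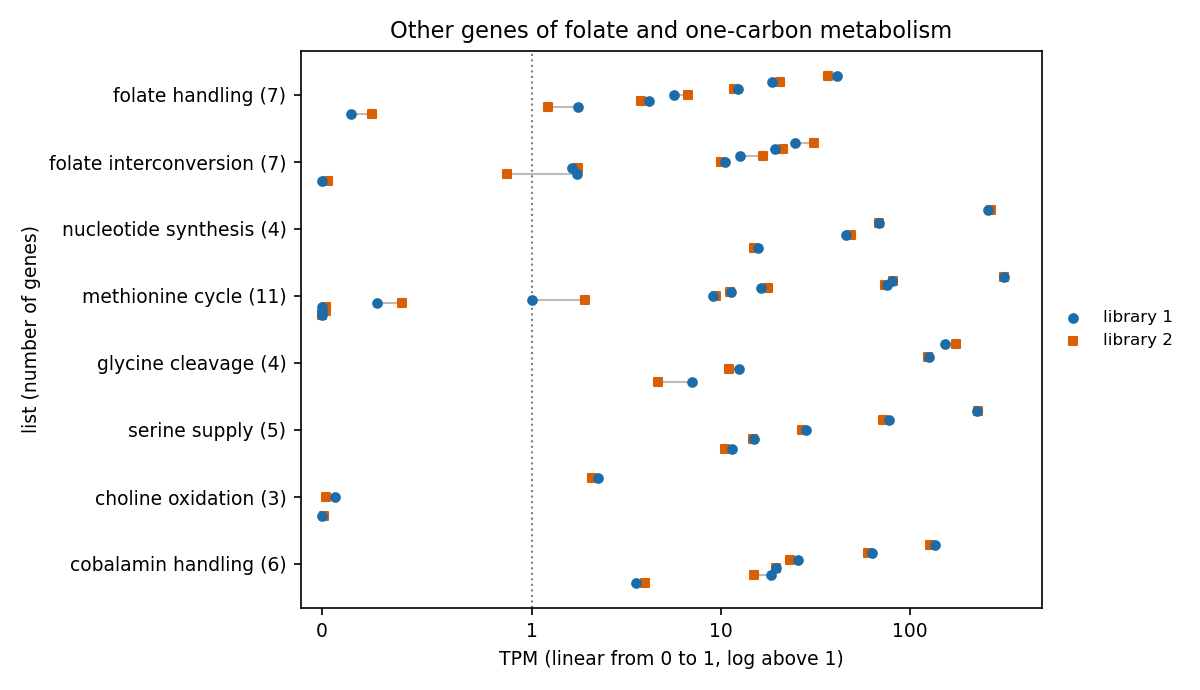
Level of the 47 other genes by list in TPM, linear from 0 to 1 and logarithmic above; circles are library 1, squares library 2, each line joins 1 gene, and the dotted line is 1 TPM. Nucleotide synthesis, glycine cleavage, serine supply and cobalamin handling have every gene above 1 TPM in both libraries, while 4 methionine cycle and 2 choline oxidation genes lie below it.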

How the data were processed

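The authors quantified 2 total RNA libraries of 1 group to GENCODE M4 gene models (mm10), as the deposited notes state. The sources used here name no version of aligner or quantifier. By the authors' column names, which are RSEM's, expected counts are estimates of reads per gene or transcript, with no normalization. TPM and FPKM, per the file headers, are the authors' values scaled by effective length and depth, and both include spike-ins, which held 15.4% and 15.8% of TPM in library 1 and library 2. The deposited isoform percentage is the percent of a gene's TPM in 1 transcript. Deposited posterior mean TPM and posterior SDs of counts were used as they stand.

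Symbols, types, positions and junctions were read from GENCODE M21 (same assembly), which named 50 of the 51 transcripts, and promoters came from RefSeq (GRCm38.p6). Levels are mean ± SD over n = 2 libraries. Library ratios used the expected counts, unrounded except within the exact Clopper-Pearson 95% interval of their split, scaled by TMM in edgeR 4.0.16 (R 4.3.3). The count scaling and the dispersion estimate were tested on simulated data, with ratios read only from genes of more counts than Folr1. The counting interval and the transcript shares were not part of that test. With 1 group there is no test, no p-value and no search for genes of like pattern. Genes were named by rule: all 9 genes, transcripts with 10% or more of TPM in either library, the 2 highest of each other list, those below 1 TPM in both, and those past 25%. The values of 1 gene that this rule names are not reported here. The genes and lists were chosen with earlier results of these data known. Alternatives covered posterior mean TPM, FPKM, counts per effective length, coding transcripts, rescaling without spike-ins, DESeq2 1.42.0 size factors, other minimums and folds, and each library alone. Depth was 30849058 and 31600302 expected counts, and intervals cover counting error only.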

Additional observations from a re-analysis of the deposited data

How the results depend on the processing

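With posterior mean TPM, Shmt2 over Shmt1 was 0.963, Mthfd2 over Mthfd1 was 0.732 and Folr1 over Folr2 was 14.6. That 14.6 includes TPM given to Folr1 entries with no expected counts. With protein-coding transcripts only, Shmt2 over Shmt1 was 1.40 and Mthfd2 over Mthfd1 was 0.713. The number of genes past the 25% limit was 2 with no minimum of counts, 0 with a minimum of 200 counts, and 2 when the counting interval had to exclude 1. Of the alternatives to these and the other main results, 40 kept a count within 1.5 times or a value within 1 SD, as a library alone always does with n = 2. For single genes and transcripts, 96 stayed within 1 SD or, for library ratios, within the counting interval, and 24 did not. The 96 include 21 values without library 1 and 21 without library 2, which stay by construction. Ratios close to 1 crossed it: Shmt2 over Shmt1 did with posterior mean TPM and with library 1 alone, Mthfd1 between libraries (0.988) was 1.01 by deposited TPM and by total gene counts, and Mthfd2 (0.999) was 1.00 to 1.02 under the other scalings. No library ratio whose counting interval excluded 1 crossed it. Each library alone gave 0.980 to 1.02 for Shmt2 over Shmt1, 0.716 to 0.725 for Mthfd2 over Mthfd1, 0.169 to 0.191 for Mthfd1l over Mthfd1, and 6.80 to 10.6 for Folr1 over Folr2. Ratios between libraries cannot be made with 1 library left out. No paired analysis was possible because the study has 1 group. Depth limits Folr1 and Folr2, at 56 and 9 counts over both libraries. The cause of the moved values was not tested, except that protein-coding transcripts leave out the other Shmt1 entries by construction.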
